A study of Danio rerio with 12 samples.

Results

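The Krüppel-like factors described here are 9 genes chosen by name from the 22962 genes in the expression table: *klf2a*, *klf2b*, *klf4*, *klf6a*, *klf3*, *klf9*, *klf13*, *klf11a* and *klf11b*. They were measured by RNA-seq in GFP+ macrophage-lineage cells that had been sorted from heads of zebrafish larvae with the *mpeg1*:GFP transgene. In the Injury group (replicates 1, 2 and 4), the optic tectum of larvae at 4 days post fertilisation (dpf) was pierced with a metal pin and the cells were taken at 2 h post injury (hpi). In the Sham group (replicates 1 to 6), larvae of the same genotype and age had no tectal injury. Each library came from a pool of about 180 larvae, and all 9 libraries carry the same transgene, in which the *mpeg1* promoter marks microglia and peripheral macrophages alike. The labels do not say whether the pools came from separate clutches, so p-values measure the spread between these pools only. In bulk RNA of sorted cells, fewer cells of a type and less RNA per cell cannot be told apart.

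Krüppel-like factors are transcription factors that bind GC-rich promoter elements through conserved zinc fingers at the end of the protein, while their divergent front part recruits either co-activators or co-repressors. Several are early response genes, and in mammals some of them restrain and others promote the inflammatory activation of monocytes and macrophages. KLF2 and KLF4 are also known as flow-induced factors of endothelium, KLF9 as a direct target of the glucocorticoid receptor, and KLF11 as a gene induced by TGF-beta. These roles are taken from mammals and serve as background only.

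The 9 libraries held between 6754699 and 8180104 reads on genes, so that 3 reads corresponded to between 0.349 and 0.466 CPM, the scaled number of reads per 1000000 reads on genes. All 16 macrophage-lineage markers were present, with *mpeg1.1* at 2657 ± 90.8 CPM in Injury and 2527 ± 180 CPM in Sham cells (SD, n = 3 and n = 6). The 5 neutrophil markers found in the table were also present, with summed levels of 8344 to 10857 CPM in Injury and 8066 to 11124 CPM in Sham libraries. Of these 1, *mmp13a*, rose (log2FC 0.77), with the call lost without Injury replicate 1 or 2 and without a filter on low reads. Of 10 microglia markers 1 rose, the amino acid transporter gene *slc7a7* (log2FC 0.85). The neutrophil and microglia lists each held 2 markers with an unadjusted p below 0.05, 1 higher and 1 lower in Injury cells, against 17.6% of all genes. None of the 9 erythrocyte, 11 keratinocyte and 10 neuron markers tested passed a false discovery rate (FDR) below 0.01 with limma, DESeq2, edgeR or limma-voom. Of these, 1 erythrocyte marker had an unadjusted p below 0.05, against 17.6% of all genes. Across all genes, 443 of the 16085 genes tested (2.75%) passed FDR<0.01 (limma, Benjamini-Hochberg). In Injury cells 342 of them were higher (2.13% of all genes tested) and 101 lower (0.628% of all genes tested).

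All 9 Krüppel-like factors had enough reads to be tested, and 1 of them, *klf13*, passed FDR<0.01. Over all genes tested the share that passed was 2.75%, and the share that passed with a higher level in Injury cells was 2.13%. The gene *klf13* was also the only member whose Injury libraries all lay above all Sham libraries, an arrangement found for 5.73% of all genes. No member had all Injury libraries below all Sham libraries, which held for 4.61% of all genes. The median log2 fold change (log2FC, Injury over Sham) was -0.11 over the 9 members and -0.02 over all genes tested, and 4 of the members' estimates were positive and 5 negative. An exact permutation test over the 9 libraries cannot give a p-value below 0.0119 with 84 possible groupings.

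**Figure D1:**
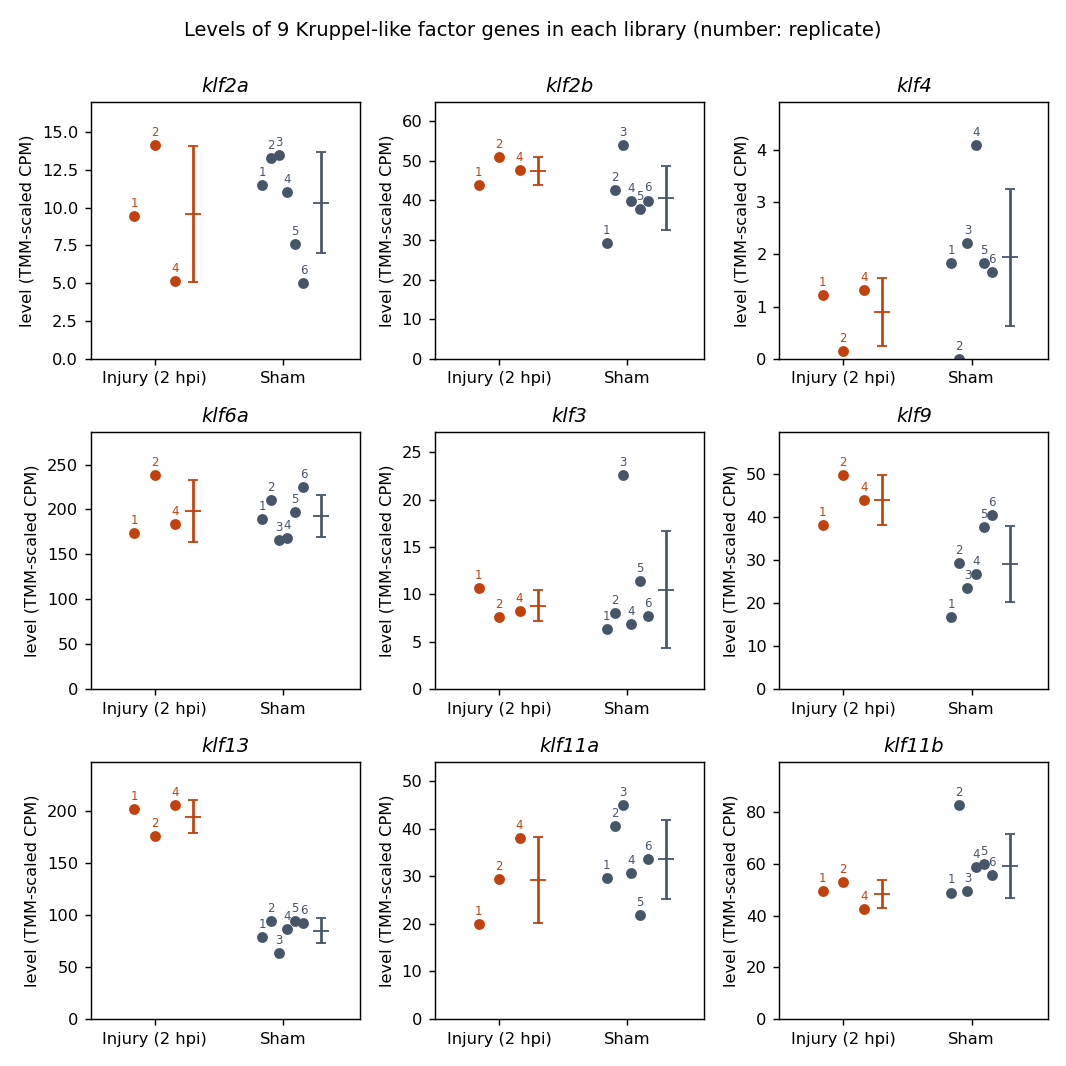
Normalised level (CPM, separate scale for each gene) of the 9 Krüppel-like factors in every library, with Injury points to the left of Sham points and bars for the mean and SD. For *klf13* the 3 Injury libraries, at 176 to 206 CPM, lie above all 6 Sham libraries, whose highest value is 94.4 CPM, and for the other members the groups overlap.

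*klf13* (ENSDARG00000061368) encodes a factor that is known in human T cells for driving late expression of the chemokine CCL5 and that can recruit the SIN3A co-repressor. Its level was 202, 176 and 206 CPM in Injury replicates 1, 2 and 4, and the Sham libraries ranged from a lowest 63.1 through a median of 89.5 to a highest 94.4 CPM. Even the lowest Injury library was well above the highest Sham library, and the lowest Sham value was that of replicate 3. The means were 195 ± 16.0 CPM in Injury and 85.0 ± 12.1 CPM in Sham cells (SD, n = 3 and n = 6). The fitted difference was a log2FC of 1.202 (SE 0.15), which is a 2.30-fold higher level with a 95% interval of 1.86 to 2.84 (limma, FDR = 1.07e-05, and p = 0.0119 in the two-sided exact permutation test). These values rest on 1136 to 1404 reads in Injury and 483 to 808 reads in Sham libraries. Leaving out each library in turn gave log2FC values between 1.12 and 1.27, and *klf13* passed FDR<0.01 in each of 20 alternative fits, with a highest FDR of 0.000335. By p-value it ranked 58 among the genes tested, and by log2FC it ranked 339.

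In a newer assembly than the build of these counts, the RefSeq gene table places *trpm1b*, a cation channel gene, on top of *klf13*, and the sources used here do not say that reads were counted by strand. The *trpm1b* row itself held 1 to 22 reads in Injury and 4 to 20 reads in Sham libraries, with a log2FC of -0.11 (limma, FDR = 0.953). No other member overlapped a gene in that table.

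The summed level of the 16 macrophage-lineage markers did not overlap between the groups, with 12349 to 13498 CPM in Injury and 10210 to 11927 CPM in Sham libraries. Singly, 14 of these markers did not pass, the median log2FC was 0.09, and none was at 0 in all libraries. The other 2 rose, against 2.13% of all genes, namely the cathepsin gene *ctss2.1* (log2FC 1.53) and *spi1b* (log2FC 0.50), which encodes the myeloid factor Pu.1. The summed level includes both genes. *spi1b* alone held 1589 to 2108 CPM in Injury and 1144 to 1540 CPM in Sham libraries. *ctss2.1* held 512 to 704 CPM in Injury and 159 to 293 CPM in Sham libraries. The sum is therefore not a result separate from these 2 genes. The call of *spi1b* was lost without Injury replicate 1 (FDR = 0.0815) or 4 (limma, FDR = 0.0555), without Sham replicate 2, 3, 4 or 6, with library size alone (FDR = 0.0318), with upper quartile scaling (FDR = 0.0141) and without a filter on low reads (FDR = 0.0279). The part of these markers in the level of *klf13* was not tested.

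Within each library, *klf13* took a larger share of the reads that fell on the 9 members. That share was 36.8%, 28.5% and 35.7% in Injury replicates 1, 2 and 4, against 14.4% to 20.1% in the Sham libraries. The share of *klf6a* was 34.01 ± 3.85% in Injury and 41.6 ± 3.25% in Sham cells, and that of *klf11b* was 8.32 ± 0.848% in Injury and 12.7 ± 1.80% in Sham cells (SD, n = 3 and n = 6). Such shares are tied to each other, since they sum to 100% in every library. The summed level of the 9 members was 548 to 619 CPM in Injury and 413 to 521 CPM in Sham libraries, so the groups did not overlap. This sum includes *klf13*, at 176 to 206 CPM in Injury and 63.1 to 94.4 CPM in Sham libraries. None of the other 8 members passed, so the sum does not show a rise of the family as a whole.

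A ratio of 2 genes within a library largely cancels the scaling of the libraries to each other. It does not do so fully, since a constant was added to each CPM before the log, which weighs most for low genes. *klf13* was therefore set against each of the other 8 members, having been singled out after its values were seen. The log2 ratio of *klf13* to *klf6a* was -0.02 ± 0.36 in Injury and -1.18 ± 0.16 in Sham cells, a difference of 1.16 (SD, n = 3 and n = 6, exact permutation p = 0.0119). Its ratio to *klf11b* differed by 1.48 and its ratio to *klf11a* by 1.41, each with all Injury libraries above all Sham libraries and an exact permutation p of 0.0119. The ratio to *klf2b* was 0.96 higher in the same arrangement (exact permutation p = 0.0119). The ratio to *klf3* was 1.31 higher without overlap (exact permutation p = 0.0357), and Sham replicate 3 stood apart with a ratio of 1.46, where the other Sham libraries reached up to 3.57. The ratios to *klf2a* (difference 1.34, exact permutation p = 0.0357) and *klf4* (difference 1.89, exact permutation p = 0.0714) overlapped between the groups. Sham replicate 2 held 0 reads of *klf4* and Injury replicate 2 held 1. Their ratios to *klf4*, 7.56 and 8.08, were therefore largely set by the added constant, and the size of the *klf4* difference depends on it. The smallest difference was that to *klf9*, at 0.56, with overlapping groups and an exact permutation p of 0.0595. These 8 ratios share *klf13* and are not independent of its difference.

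**Figure D2:**
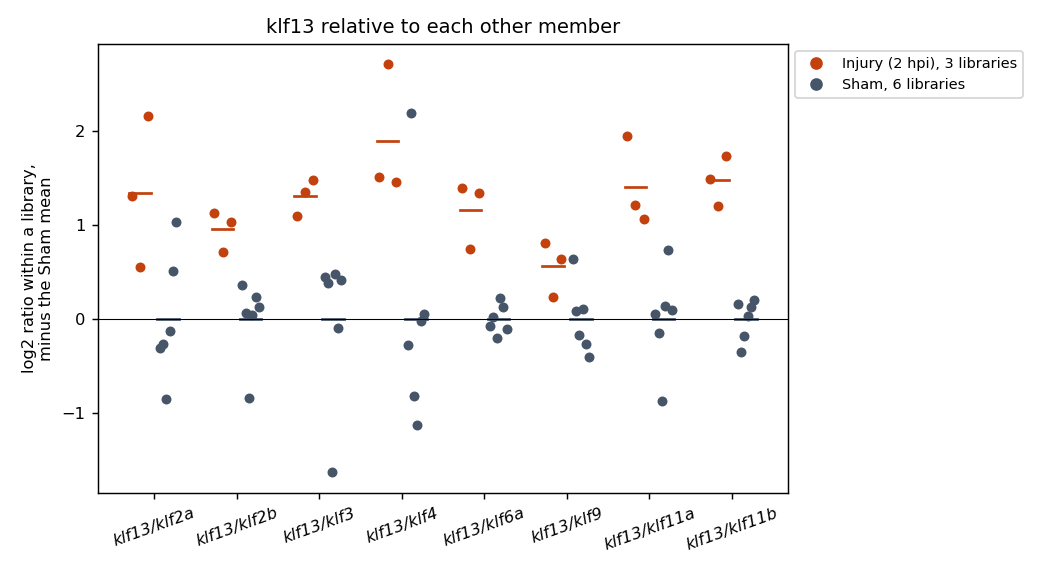
Log2 ratio of *klf13* to each of the other 8 Krüppel-like factors within each library, with Injury points to the left of Sham points. The groups do not overlap for *klf2b*, *klf3*, *klf6a*, *klf11a* and *klf11b*, and they overlap for *klf2a*, *klf4* and *klf9*.

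*klf9* (ENSDARG00000068194) is the member with the next largest positive difference, and it did not pass the test. Its level was 38.1, 49.7 and 43.8 CPM in Injury replicates 1, 2 and 4, and the Sham libraries had a lowest value of 16.7, a median of 27.9 and a highest value of 40.4 CPM. Injury replicates 2 and 4 lay above all Sham libraries, while 1 Sham library, replicate 6, lay above Injury replicate 1. The means were 43.9 ± 5.79 CPM in Injury and 29.0 ± 8.87 CPM in Sham cells (SD, n = 3 and n = 6). The log2FC was 0.64 (SE 0.24) with a 95% interval of 0.14 to 1.14 (limma, FDR = 0.139, exact permutation p = 0.0595). It was among the 17.6% of all genes with an unadjusted p below 0.05, as was *klf13*, and no other member was. It passed FDR<0.01 in none of the 20 alternative fits, in which its FDR lay between 0.0107 and 0.358.

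Because *KLF9* is a target of the glucocorticoid receptor in mammals, 19 genes for that receptor and its usual targets were read beside it, 15 of which could be tested. Of these, 4 rose, none fell and 11 did not pass, against 2.75% of all genes that passed in either direction, and the list's median log2FC was 0.08. At an unadjusted p below 0.05 there were 5 higher and 1 lower in Injury cells, against 17.6% of all genes. The called genes were *fkbp5*, *sgk1*, *nfkbiaa* and *nfkbiab*, and their differences held in each of 20 alternative fits. *fkbp5*, which encodes a co-chaperone that dampens the receptor, was at 324, 371 and 374 CPM in Injury replicates 1, 2 and 4, with a Sham range of 116 to 264 CPM around a median of 182 CPM. All 3 Injury libraries were above the highest Sham library, with a log2FC of 1.001 (SE 0.17, limma FDR = 0.000543). *sgk1*, a kinase gene, was 204.7 ± 30.1 CPM in Injury and 90.8 ± 15.2 CPM in Sham cells (log2FC 1.17, limma FDR = 2.10e-05). *nfkbiaa* (log2FC 1.16, limma FDR = 3.46e-06) and *nfkbiab* (log2FC 0.72, limma FDR = 0.000548) encode inhibitors of NF-κB, which NF-κB itself is also known to induce. The receptor gene *nr3c1* had 71.1 ± 10.4 CPM in Injury and 91.8 ± 11.0 CPM in Sham cells and did not pass (log2FC -0.37, limma FDR = 0.192). The clock gene *per1b*, the target with the highest mean CPM among those that did not pass, had a log2FC of -0.09 (limma FDR = 0.821). *klf15*, another glucocorticoid-induced gene in mammals that was not on this list, was lower in all Injury than in all Sham libraries, as given below. The part of the receptor in these levels was not tested.

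The *klf11* paralogs encode proteins whose mammalian counterpart, KLF11 or TIEG2, represses transcription through SIN3A. *klf11a* (ENSDARG00000030844) was at 20.04, 29.3 and 38.1 CPM in Injury replicates 1, 2 and 4, and the Sham libraries ran from 21.8 through a median of 32.1 to 44.9 CPM. The groups overlapped almost entirely, and only Injury replicate 1 lay below all Sham libraries. The log2FC of *klf11a* was -0.21 (SE 0.24) with a 95% interval of -0.70 to 0.29 (limma, FDR = 0.724). *klf11b* (ENSDARG00000013794) was at 49.5, 52.9 and 42.5 CPM in Injury replicates 1, 2 and 4, and the Sham libraries ran from 49.0 through a median of 57.1 to 82.8 CPM. The highest Sham value came from replicate 2, which stood apart from the other Sham libraries at 49.0 to 59.9 CPM. The log2FC of *klf11b* was -0.27 (SE 0.18) with a 95% interval of -0.65 to 0.10 (limma, FDR = 0.464), and it was -0.17 without that library. The log2 ratio of *klf11a* to *klf11b* was -0.76 ± 0.57 in Injury and -0.83 ± 0.43 in Sham cells (SD, n = 3 and n = 6), a difference of 0.07 with an exact permutation p of 0.810, adjusted to 0.810 over the 2 paralog pairs compared. The sign of that small difference turned without Injury replicate 4 (-0.24) and without Sham replicate 5 (-0.06).

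Among genes of the TGF-beta pathway, the co-repressor gene *skia*, which had the highest mean CPM, was at 197 ± 4.39 CPM in Injury and 199 ± 24.9 CPM in Sham cells (SD, n = 3 and n = 6, limma FDR = 0.998).

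*klf3* (ENSDARG00000015495) encodes the family's classical repressor, which in mammals acts through the co-repressor CtBP, as do KLF8 and KLF12. Its level was 10.6, 7.61 and 8.21 CPM in Injury replicates 1, 2 and 4, and the Sham libraries had a lowest value of 6.37, a median of 7.84 and a highest value of 22.6 CPM. Sham replicate 3 alone gave the highest value, the other Sham libraries lying between 6.37 and 11.4 CPM, within which all Injury libraries fell. The log2FC was -0.11 (SE 0.37) with a 95% interval of -0.87 to 0.66 (limma, FDR = 0.925), and it was 0.14 without Sham replicate 3 (limma, FDR = 0.875).

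*klf2a*, *klf2b* and *klf4* belong to the branch that in mammals restrains inflammatory activation of endothelium and myeloid cells, KLF4 also being needed for monocyte differentiation. *klf2b* (ENSDARG00000040432) was at 43.9, 50.9 and 47.7 CPM in Injury replicates 1, 2 and 4, and the Sham libraries ran from 29.3 through a median of 39.9 to 54.0 CPM. All Injury libraries lay inside the Sham range, above its median. The log2FC of *klf2b* was 0.24 (SE 0.19) with a 95% interval of -0.15 to 0.64 (limma, FDR = 0.562).

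*klf2a* (ENSDARG00000042667) was at 9.41, 14.1 and 5.13 CPM in Injury replicates 1, 2 and 4, and the Sham libraries ran from 5.01 through a median of 11.3 to 13.5 CPM. The 3 Injury libraries thus spanned nearly the same range as the 6 Sham libraries, on 35 to 91 reads in Injury and 36 to 114 reads in Sham libraries. Its log2FC was -0.14 (SE 0.37) with a 95% interval of -0.91 to 0.63 (limma, FDR = 0.896). The log2 ratio of *klf2a* to *klf2b* was -2.36 ± 0.66 in Injury and -1.97 ± 0.54 in Sham cells (SD, n = 3 and n = 6), a difference of -0.38 with an exact permutation p of 0.381, adjusted to 0.762 over the 2 paralog pairs.

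*klf4* (ENSDARG00000079922) was the member with the fewest reads, at 1 to 9 reads in Injury and 0 to 30 reads in Sham libraries. This corresponded to 1.21, 0.155 and 1.32 CPM in Injury replicates 1, 2 and 4 and to a Sham range of 0 to 4.10 CPM around a median of 1.83 CPM. Sham replicate 2 held no read of *klf4*, and Injury replicate 2 held fewer than 3, so both lay under the level that 3 reads mark. With a log2FC of -0.69 (SE 0.65) and a 95% interval of -2.04 to 0.65 (limma, FDR = 0.649), no difference was detectable at this depth.

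Of 16 markers of endothelium, where *klf2* and *klf4* genes are also expressed, 9 could be tested. Of these, 1 fell, none rose and 8 did not pass, against 2.75% of all genes that passed in either direction. The summed level of the 16 genes was 406 to 472 CPM in Injury and 495 to 622 CPM in Sham libraries, without overlap. This sum includes *fli1b*, which alone held 205 to 251 CPM in Injury and 313 to 413 CPM in Sham libraries. The sum is therefore not a result separate from that gene. The gene that fell was *fli1b*, an ETS factor gene that is also expressed in myeloid cells, at 230.4 ± 23.6 CPM in Injury and 349 ± 35.7 CPM in Sham cells (SD, n = 3 and n = 6). The log2FC of *fli1b* was -0.60 (limma, FDR = 0.00253), with the call lost without Injury replicate 2 (FDR = 0.0279) or 4 (limma, FDR = 0.0146). Of the others, *kdrl* was at 0 to 0.587 CPM in Injury and 0 to 5.15 CPM in Sham libraries. *cdh5* was at 0.155 to 5.43 CPM in Injury and 0.392 to 9.33 CPM in Sham libraries. Both were named without a set rule, and most of the sum beyond *fli1b* lay in markers not named here. Over the 9 tested markers, 3 estimates were positive and 6 negative. At an unadjusted p below 0.05 there were 1 higher and 1 lower in Injury cells, against 17.6% of all genes. The part of endothelial cells in the levels of *klf2a*, *klf2b* and *klf4* was not tested.

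In endothelium, *KLF2* and *KLF4* are induced through the kinase ERK5 and MEF2 factors and held back by the CCM protein complex. Of the 15 tested genes of that route, 1 fell, none rose and 14 did not pass, against 2.75% of all genes that passed in either direction. The list's median log2FC was 0.04. The gene that fell was *mef2b*, at 44.9, 33.8 and 52.9 CPM in Injury replicates 1, 2 and 4 and at 62.3 to 114 CPM, with a median of 79.7 CPM, in the Sham libraries. The groups did not overlap, with a log2FC of -0.91 (SE 0.19, limma FDR = 0.00368), but the call was lost without Injury replicate 1 (FDR = 0.0157) or 2 (FDR = 0.0399), without Sham replicate 2 (FDR = 0.0106) and with limma-voom (FDR = 0.0114). *mapk7*, which encodes ERK5, had 20.6 ± 5.35 CPM in Injury and 30.0 ± 5.71 CPM in Sham cells and did not pass (log2FC -0.54, limma FDR = 0.199). *mef2d*, with the highest mean CPM of the list, had a log2FC of 0.04 (limma, FDR = 0.912).

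*klf6a* (ENSDARG00000029072) encodes the counterpart of KLF6, which in mouse macrophages promotes inflammatory gene expression together with NF-κB. In every Sham library it took more of the members' reads than any other, in numbers not corrected for length, with 1145 to 1534 reads in Injury and 1232 to 1812 reads in Sham libraries. Its level was 174, 238 and 184 CPM in Injury replicates 1, 2 and 4, and the Sham libraries ran from 165 through a median of 193 to 225 CPM. Injury replicate 2 was above all Sham libraries, and the other Injury libraries lay inside the Sham range, below its median. The log2FC was 0.04 (SE 0.14) with a 95% interval of -0.24 to 0.32 (limma, FDR = 0.925), the narrowest interval among the 9 members.

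Beyond these 9 genes, the table held 20 other genes of the KLF family and of the closely related SP factors, and 15 of them could be tested. None passed FDR<0.01 with limma, and none passed with DESeq2, edgeR or limma-voom. At an unadjusted p below 0.05 there were 4 of them, 1 higher and 3 lower in Injury cells, against 17.6% of all genes. Their median log2FC was -0.53, and 11 of the 15 estimates were negative. *klf12a*, a gene of the CtBP-recruiting repressors, had 33.4, 33.1 and 37.4 CPM in Injury replicates 1, 2 and 4, and the Sham libraries ran from 46.2 through a median of 50.02 to 67.5 CPM. All Injury libraries were below all Sham libraries (exact permutation p = 0.0119), an arrangement found for 4.61% of all genes. With a log2FC of -0.61 (SE 0.17, limma FDR = 0.0388) *klf12a* did not pass. The other genes of this repressor branch did not pass either, with log2FC values of -0.53 for *klf12b* (limma, FDR = 0.352) and -0.46 for *klf8* (limma, FDR = 0.333). *klf15*, which in mammals is another glucocorticoid-induced member, had 11.5, 7.30 and 8.80 CPM in Injury replicates 1, 2 and 4 and 12.4 to 24.6 CPM in the Sham libraries, again without overlap (log2FC -0.93, limma FDR = 0.0579). *klf7b*, with the highest mean CPM of these genes, had 107 ± 18.1 CPM in Injury and 103 ± 21.2 CPM in Sham cells (log2FC 0.05, limma FDR = 0.916).

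**Figure D3:**
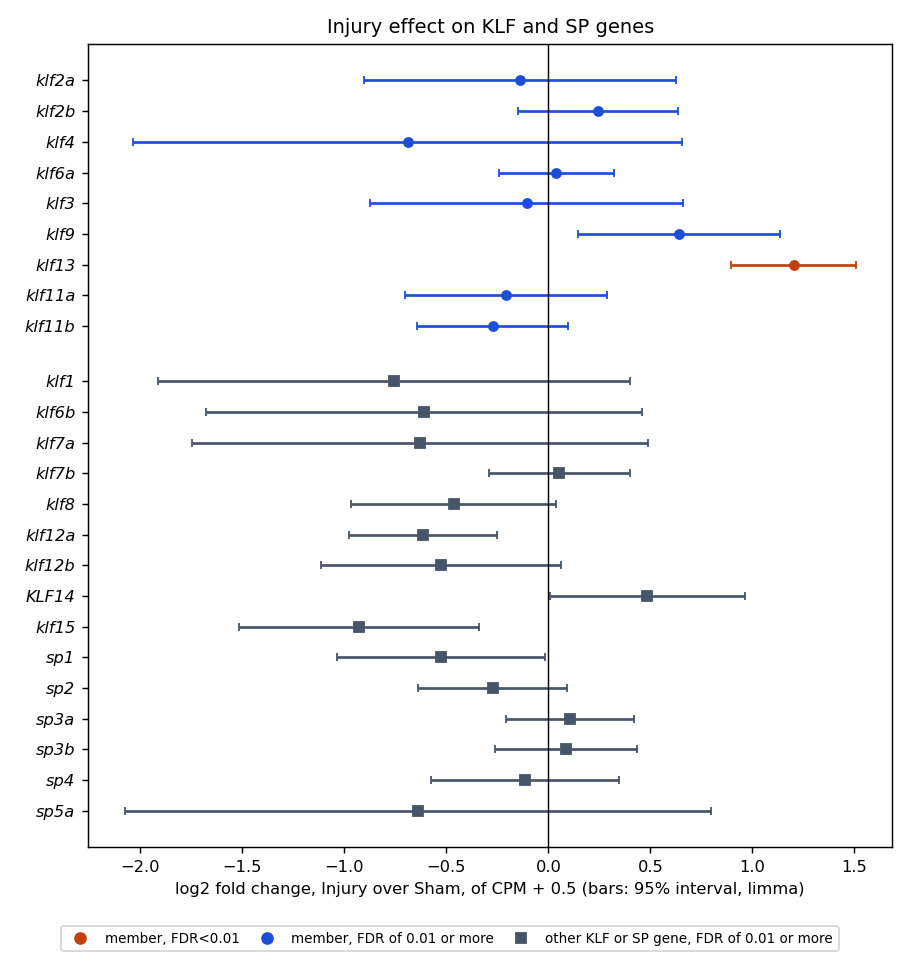
Log2 fold change of Injury over Sham with its 95% interval for the 9 Krüppel-like factors (circles) and the 15 other KLF and SP genes tested (squares). Only *klf13*, at 1.202, passed FDR<0.01, and 11 of the 15 other estimates lie below 0.

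KLF proteins act with a shared set of co-activators and co-repressors and are removed by ubiquitin ligases. Among 17 tested cofactor genes none passed FDR<0.01 with limma. At an unadjusted p below 0.05 there were 7 of them (1 higher and 6 lower in Injury cells), against 17.6% of all genes. DESeq2 called 1 of them, against 715 of all 16085 genes tested, and edgeR and limma-voom called none. The co-repressor gene *sin3aa* had 65.2 ± 6.35 CPM in Injury and 103 ± 15.2 CPM in Sham cells (log2FC -0.64, limma FDR = 0.0124), and it passed in 5 of 20 alternative fits. The deacetylase gene *hdac1*, with the highest mean CPM of these, had a log2FC of -0.04 (limma, FDR = 0.898). Among the 11 tested genes for ubiquitin ligases and deubiquitinases of KLF proteins none passed with limma, DESeq2, edgeR or limma-voom. Of these 11 genes, 1 had an unadjusted p below 0.05, against 17.6% of all genes. *usp10*, with the highest mean CPM of these, had a log2FC of 0.02 (limma, FDR = 0.963).

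**Figure D4:**
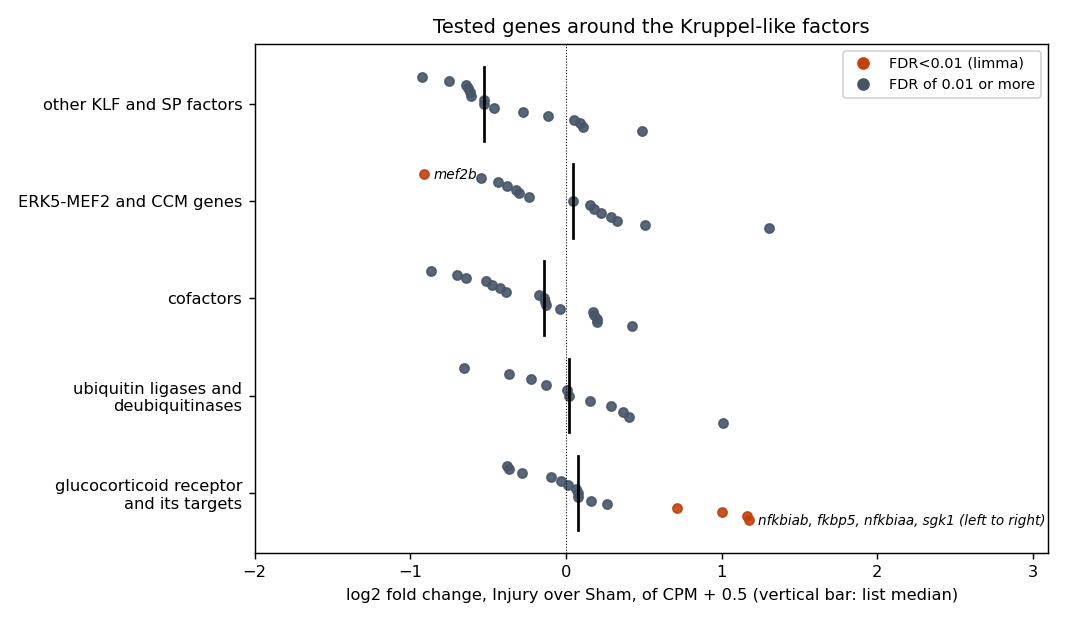
Log2 fold change of Injury over Sham for each tested gene (points) of 5 lists around the Krüppel-like factors, with a vertical bar at each list's median. Genes past FDR<0.01 are *mef2b* below 0 and *nfkbiab*, *fkbp5*, *nfkbiaa* and *sgk1* above 0.

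The genes whose levels across the 9 libraries were most like those of a member were sought by Pearson's r of log2 levels, over 11401 genes whose mean level reached 5 CPM. For *klf13* they were *rab11fip1b*, a gene of vesicle recycling (r = 0.991), *matk*, a kinase gene (r = 0.986), and *egr3*, an early response transcription factor gene (r = 0.983). Over the 6 Sham libraries alone their r with *klf13* was 0.974, 0.928 and 0.774. All 3 passed FDR<0.01, with log2FC values of 0.76 for *rab11fip1b*, 2.39 for *matk* and 2.59 for *egr3*, so their r over all libraries includes the difference between the groups. The call of *rab11fip1b* (limma, FDR = 0.00428) was lost when any 1 of the 3 Injury libraries was left out (highest FDR = 0.0333). It was also lost without Sham replicate 1 and with library size alone (limma, FDR = 0.0180).

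For *klf9* the most alike genes were *socs1a*, an inhibitor gene of cytokine signalling (r = 0.937, and 0.894 over the Sham libraries), the row named *SLC9A3R1 (1 to many)* (r = 0.933, and 0.933 over the Sham libraries) and *nampta*, a gene of NAD synthesis (r = 0.926, and 0.867 over the Sham libraries). None of these passed FDR<0.01. For *klf11b* they were *trim59* (r = 0.950), *tm7sf3* (r = 0.927) and *wdr73* (r = 0.914), and all 3, like *klf11b*, had their highest Sham value in replicate 2. These correlations describe 9 libraries that differ in depth and group, the genes having been picked as the closest of many.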

How the data were processed

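Cells sorted from heads of *mpeg1*:GFP larvae were sequenced by the authors after cDNA amplification. The submitters' processing notes name cutadapt 1.9, STAR 2.5.2b, featureCounts 1.5.1, edgeR 3.20.1 and the build GRCz10. The deposited signal values are gene counts scaled to CPM (reads per 1000000 reads on genes) with TMM factors for 3 Injury and 6 Sham libraries, and 100% of them came out as whole reads within 0.05 of a read. The other 3 Injury samples were set aside by the authors for duplication and mapping rates, and they were not analysed here. The deposited log2 fold changes and p-values of the authors' own comparison were not used.

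Genes were kept by edgeR's filterByExpr on recovered reads (minimum 10, total 15), and log2(CPM + 0.5) was tested with limma-trend 3.58.1 in R 4.3.3, Injury over Sham, without covariates. FDR is Benjamini-Hochberg adjusted over the 16085 genes tested. Fold changes are on the log2(CPM + 0.5) scale and understate those of low genes. Exact permutation tests used 84 groupings. Alternatives were DESeq2 1.42.0, edgeR 4.0.16 quasi-likelihood and limma-voom on recovered reads, other scalings, pseudocounts, filters and thresholds, a replicate block, and leaving out each library. The limma step was run on simulated independent libraries with the same dispersion for every gene, which tests the code and not the error rate in these data. CPM is not per length, so differences were tested within a gene, and a ranking of genes by CPM or reads is not a ranking of transcript levels.

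All members were named, and beside them the list genes past FDR<0.01, the gene with the highest mean CPM of each pathway list, and the 3 genes most like *klf13*, *klf9* and *klf11b*. Other list genes named (*nr3c1*, *mapk7*, *sin3aa*, *klf12a*, *klf12b*, *klf8*, *klf15*) were chosen after their values were seen. The markers *mpeg1.1*, *kdrl* and *cdh5* were named without a set rule. Members and lists were chosen with earlier results of these data known. The counts for the list of TGF-beta pathway genes are not reported here.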

Additional observations from a re-analysis of the deposited data

Results flagged for a closer look

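Of 37 values (genes and paralog ratios) tested for a Sham library far from the other 5, 5 had such a library (13.5%). Chance alone gives about 1 in 20 for independent values, which these are not, since 2 of the 5 belong to genes picked for following *klf11b*, itself among them. Among the Krüppel-like factors, *klf3* was at 22.6 CPM in Sham replicate 3 and at 6.37 to 11.4 CPM in the other Sham libraries. *klf11b* was at 82.8 CPM in Sham replicate 2 and at 49.0 to 59.9 CPM in the others. The same library held the highest Sham values of the 3 genes picked for their likeness to *klf11b*, and it stood apart for 2 of them, with *wdr73* at 14.1 CPM against 3.67 to 6.34 CPM in the others and *tm7sf3* at 22.9 CPM against 13.1 to 16.4 CPM in the others. The neutrophil marker *mmp13a* was at 3006 CPM in Sham replicate 6 and at 1570 to 2074 CPM in the others, and its log2FC without that library was 0.89 (limma, FDR = 3.84e-05).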

How the results depend on the processing

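In each alternative fit *klf13* was the only member called at FDR<0.01. In the main fit it was also the only member at FDR<0.05, a threshold that *klf9* met under the replicate block (limma, FDR = 0.0107). The count over all genes, 443, was 715 with DESeq2, 912 at FDR<0.05 and 232 to 493 without 1 library, the lowest being that without Injury replicate 4, with 221 genes shared, and 267 without Injury replicate 1. Scaling by library size alone shifted the median log2FC of all genes by -0.12, to -0.13, and 257 genes were then higher and 194 lower. The replicate numbers were not taken to pair the libraries, since the labels give them no meaning. Same-numbered deviations correlated at 0.153, 0.123 and 0.0404, which does not settle whether they are pairs. For its RT-qPCR, the paper set each injured sample against a sham sample made on the same day. It took 3 of these pairs from samples that were also sequenced. Whether equal replicate numbers mark such a day is not stated, so the main test may ignore a pairing by day. As a hint from the data, each of the 3 Injury libraries was closest to the Sham library of its own number, while Sham replicate 4 was slightly closer to Injury replicate 2 (0.0496). With the replicate block 632 genes were called, and *klf9* had a log2FC of 0.88 (limma, FDR = 0.0107). The block sets each Injury library against the Sham library of its number, so its estimates rest on 3 pairs. Small estimates changed sign: under the block *klf3* (0.29), *per1b* (0.063), *hdac1* (0.033) and *klf7b* (-0.14), with library size alone *klf6a* (-0.080), *mef2d* (-0.078), *klf7b* (-0.066) and *usp10* (-0.10), with upper quartile scaling *klf6a* (-0.0023) and *usp10* (-0.025), and with RLE scaling *skia* (0.0035). Leaving out each library gave log2FC ranges of -0.46 to 0.23 for *klf2a*, -0.24 to 0.14 for *klf3*, -0.099 to 0.13 for *klf6a*, -0.42 to 0.034 for *klf11a*, -0.029 to 0.20 for *klf7b*, -0.19 to 0.089 for *per1b*, -0.078 to 0.010 for *hdac1*, -0.020 to 0.098 for *mef2d*, -0.050 to 0.048 for *skia* and -0.064 to 0.093 for *usp10*, and -0.24 to 0.33 for the *klf11a* to *klf11b* ratio. The cause of these shifts was not tested. With 3 Injury libraries, a gene at 50 to 150 CPM had a median SE of 0.16 on the log2 scale, and *klf4* could not be tested under a filter of 10 reads in every library.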
